A study of Mus musculus with 18 samples.

Results

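The mature miRNAs cut from the transcripts of Igf2, H19 and Mest are described here: mmu-miR-483-3p and mmu-miR-483-5p (Igf2), mmu-miR-675-3p and mmu-miR-675-5p (H19), and mmu-miR-335-3p and mmu-miR-335-5p (Mest), written below without the species prefix. They are 6 of the 1367 mouse miRNAs named in the 5 deposited tables, and they were picked by name from their host genes, at a time when results of these data were already known. Small RNAs were sequenced from mouse cells for which the labels give the Eu-myc strain, in which a Myc transgene is driven by an immunoglobulin heavy chain enhancer active in B cells. In mouse embryonic fibroblasts (MEF), the miR-17~92 cluster, an oncogenic polycistron of miRNAs, was overexpressed (OV), deleted (d/d), or floxed and left intact (fl/fl), with 3 libraries per group. A separate MEF set had d/d cells in both of its groups, 1 with overexpressed miR-290~295, the cluster typical of mouse embryonic stem cells, and 1 with an empty plasmid (Empty), again with 3 libraries each. Splenic B cells had 1 library each of OV, d/d and fl/fl. The study calls the cells of the 3 miR-17~92 levels isogenic. No label says whether the 3 libraries of a group came from separate cultures, so the spread between them may be technical. The labels do not say how the cluster was deleted or raised.

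Imprinted genes are transcribed mainly from 1 parental chromosome. Igf2, a fetal growth factor, is made from the paternal copy and its neighbour H19, a long non-coding RNA, from the maternal copy, and both depend on a shared control region and shared enhancers. Mest, a gene of the alpha/beta hydrolase family, is also made from the paternal copy. All of them belong to the growth-related imprinted genes that are active in the mouse embryo and its mesenchyme and fall after birth. miR-675 is released from H19 itself and has been linked to restraint of placental growth in mouse. miR-483-3p has been described in human cells as a survival-promoting miRNA, and miR-335 as a suppressor of metastasis in human breast cancer. The reads do not tell the parental copies apart.

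The mature sequences are shown because each arm is counted on its own and because the seed, bases 2 to 8 in capitals, sets which messenger RNAs a miRNA can pair with. They come from RefSeq on GRCm38.p6, where all 6 names matched, and are written 5′ to 3′.
miR-483-3p: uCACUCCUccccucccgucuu
miR-483-5p: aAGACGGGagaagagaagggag
miR-675-3p: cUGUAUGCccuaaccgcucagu
miR-675-5p: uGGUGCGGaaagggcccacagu
miR-335-3p: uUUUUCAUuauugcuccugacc
miR-335-5p: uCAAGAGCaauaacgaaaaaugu
No seed is shared among these miRNAs, and no other mouse mature miRNA in the RefSeq table has any of them. The miR-335 arms are poor in G and C, with 36.4% in the 3p arm and 30.4% in the 5p arm, and the other 4 lie between 54.5% and 63.6%.

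The hairpins below show how the arms sit in their precursors, with both mature arms in capitals, the 5p arm first.
Mir483: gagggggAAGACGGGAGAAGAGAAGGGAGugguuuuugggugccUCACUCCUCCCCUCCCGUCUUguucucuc
Mir675: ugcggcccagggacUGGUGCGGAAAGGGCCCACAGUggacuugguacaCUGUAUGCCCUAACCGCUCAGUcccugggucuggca
Mir335: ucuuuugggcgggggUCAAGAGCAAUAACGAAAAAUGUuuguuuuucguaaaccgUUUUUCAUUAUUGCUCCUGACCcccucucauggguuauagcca
On GRCm38, Mir483 lies on the minus strand at chr7:142654924-142654996, in an intron of Igf2 in 7 of the 7 annotated transcripts that span it. Mir675 lies on the same strand at chr7:142577064-142577147, inside an exon of H19 in 3 of 4 spanning transcripts and in an intron in 1. The Mir675 and Mir483 hairpins are 77776 bases apart. Mir335 lies on the plus strand at chr6:30741299-30741396, in an intron of Mest in 7 of 7 transcripts.

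The tables hold read counts divided by 1 size factor per library, called normalized counts here. Each library of OV, d/d or fl/fl MEF held between 17191892 and 24920911 reads on listed miRNAs, each of the second MEF set between 43164128 and 58911475, and each B-cell library between 10203586 and 10612256. The summed normalized counts of miR-17~92 were 384076 to 460467 in OV MEF, 1419 to 1709 in d/d MEF and 67778 to 97384 in fl/fl MEF, in the order of the labels. Those of miR-290~295 were 769474 to 902627 with the cluster and 1580 to 2065 with Empty. The 6 fibroblast and mesenchymal markers, miR-199a, miR-214, miR-143, miR-145a and miR-10b arms, took 58927 to 67296 RPM (reads per 1000000 reads on listed miRNAs) in OV, 70175 to 79743 in d/d and 58607 to 77233 in fl/fl MEF, and 180 to 1118 in B cells. The 6 haematopoietic markers were arms of miR-142a, miR-150, miR-223, miR-155 and miR-181a. They took 13518 to 21756 RPM in B cells and, with 5 of the 6 listed, 413 to 773 in MEF. These sums do not show which arms supplied the reads.

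miR-483, the miRNA of Igf2, was the member that differed most between the levels of miR-17~92 in MEF: it was at 293.6 to 508 normalized counts in d/d cells and at 26.3 or below in OV and fl/fl cells. In the OV libraries miR-483-3p had 3.97, 0 and 13.2 normalized counts, from 4, 0 and 12 reads. It had 508, 442 and 373 normalized counts in the d/d libraries, against 12.3, 26.3 and 22.4 in the fl/fl libraries. All 3 d/d libraries lie far above the other 6, and the highest OV library, OV4, lies just above the lowest fl/fl library, FL3.

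The 5p arm was likewise high in d/d cells alone. In OV cells miR-483-5p had 11.9, 10.3 and 3.30 normalized counts, from 12, 9 and 3 reads. It had 293.6, 303 and 319 normalized counts in the d/d libraries, against 19.4, 10.3 and 14.6 in the fl/fl libraries. The d/d libraries do not overlap with any other, and the OV and fl/fl libraries overlap. In bulk libraries such as these, fewer cells of a type and less RNA per cell cannot be told apart.

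**Figure D1:**
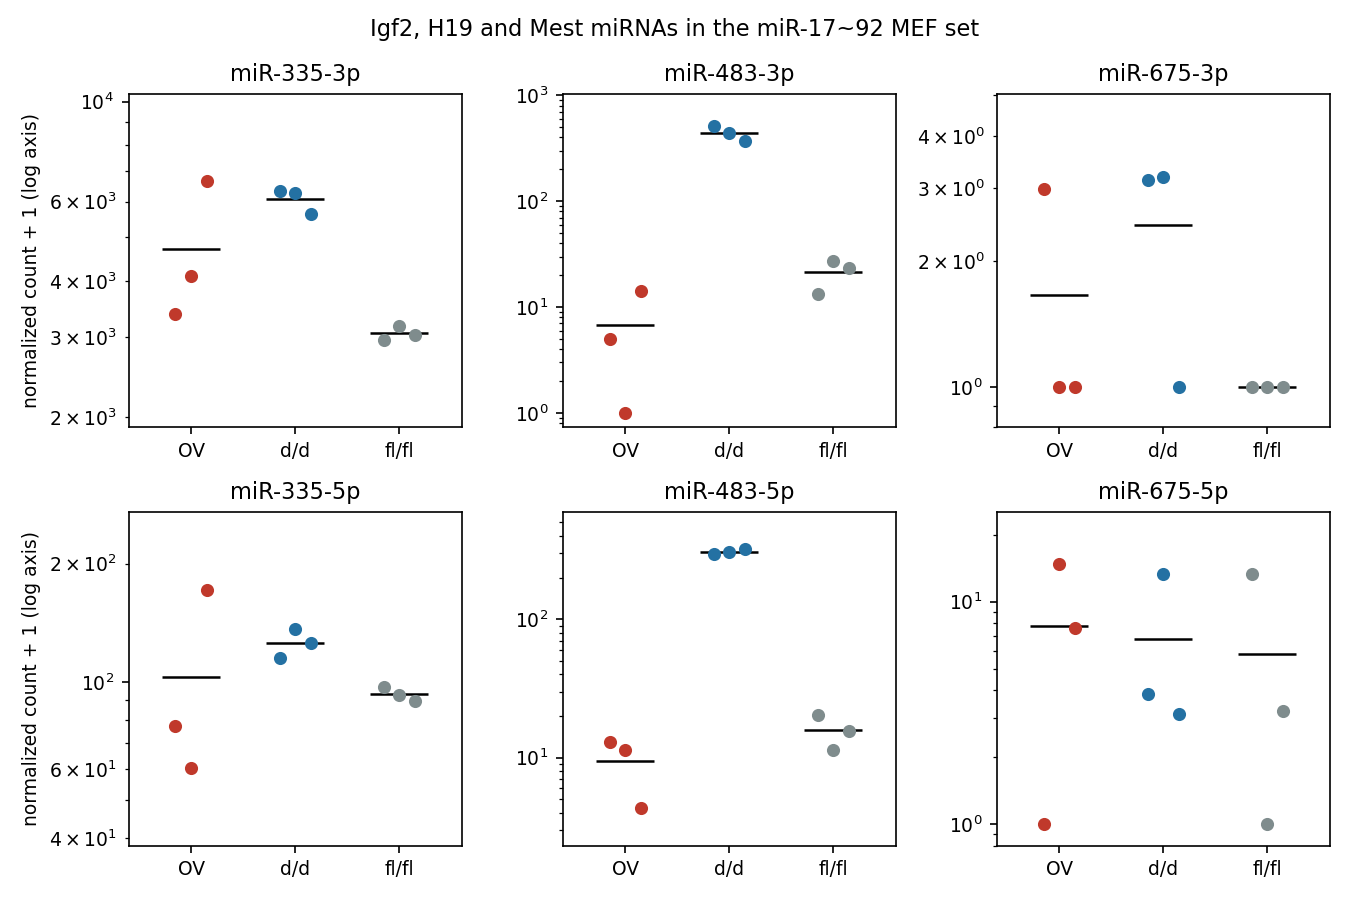
Normalized counts + 1 (log axes, which differ between panels) of the Mest (left), Igf2 (middle) and H19 (right) miRNAs in the OV, d/d and fl/fl MEF libraries, with a point per library and a line at the mean of the 3. Both miR-483 arms sit at 293.6 to 508 normalized counts in d/d and at 26.3 or below in the OV and fl/fl libraries; both miR-675 arms lie at or below 13.7 normalized counts everywhere.

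miR-335, the miRNA of Mest, was abundant in every MEF library, and its 3p arm supplied nearly all of its reads. miR-335-3p had 3376, 4102 and 6668 normalized counts in the OV libraries, a mean of 4715 ± 1730 (SD, n = 3). The d/d libraries had 6316, 6282 and 5619 normalized counts of miR-335-3p, a mean of 6072 ± 393, and the fl/fl libraries had 2962, 3176 and 3039, a mean of 3059 ± 109 (SD, n = 3 each). It ranked between 103rd and 135th of the 1204 listed miRNAs in every library. The order of the means is d/d, OV and fl/fl. OV overlaps with d/d through its library OV4, the highest of all 9, and neither overlaps with fl/fl.

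The 5p arm of miR-335 was low beside it. miR-335-5p had 76.4, 59.5 and 170 normalized counts in the OV libraries, 114, 135 and 124.4 in the d/d libraries and 96.2, 91.6 and 88.4 in the fl/fl libraries. OV4 was again the highest library, and the other 2 OV libraries were the lowest of the 9, so the OV range encloses both other groups. The d/d and fl/fl libraries do not overlap.

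miR-675 was hardly detected in these MEF, in contrast to miR-335 and to miR-483 in d/d cells. In OV cells miR-675-5p and both miR-483 arms alike had 12 reads or fewer per library. miR-675-5p had 0, 12 and 6 reads in the OV libraries, 4, 17 and 2 reads in the d/d libraries and 12, 0 and 2 reads in the fl/fl libraries. miR-675-3p had 2, 0 and 0 reads in OV, 3, 3 and 0 in d/d and 0 in each fl/fl library, where a count of 0 allows up to 3 reads. Over the 9 libraries the means were 5.80 normalized counts for the 5p arm and 0.700 for the 3p arm. Both lie under the minimum mean of 10 set for testing, so neither was tested in the main fit. In d/d the highest values were 12.3 normalized counts for the 5p arm and 2.18 for the 3p arm. Neither arm thus rose there as miR-483 did, and smaller differences could not be read at this depth.

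The comparison of d/d with fl/fl MEF asks what goes with the loss of miR-17~92. The test throughout was limma on log2 of the normalized count + 1, with Benjamini-Hochberg adjustment over all 662 miRNAs of the table with a mean of at least 10, and a miRNA was called at an adjusted p under 0.05. Because the members were chosen with earlier results known, these p-values describe them and are not independent support. Of the 4 members tested, 3 were higher in d/d and none was lower; of all miRNAs tested 30.7% were called higher, 27.6% lower and 58.3% in either direction. Nothing is read from this count, since the members were chosen with results of this comparison known.

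The largest member differences were those of miR-483. miR-483-3p was 21.5-fold higher in d/d than in fl/fl MEF, a log2 difference of 4.43 ± 0.75 (SE; adjusted p = 0.000546), the second highest of the 662. miR-483-5p was 19.97-fold higher, a log2 difference of 4.32 ± 0.40 (adjusted p = 1.14e-05), the third highest. miR-335-3p was 1.98-fold higher, a log2 difference of 0.99 ± 0.21 (adjusted p = 0.00228). For these 3 miRNAs the d/d libraries were above the fl/fl libraries in 3 of 3, and the call held in all 14 alternative settings. miR-483-3p averaged 441 normalized counts in d/d, against 20.3 in fl/fl and 5.72 in OV. miR-483-5p averaged 305 in d/d, against 14.8 in fl/fl and 8.50 in OV. Both arms passed the alternative minimum mean of 100 only through d/d, so that setting is no support for their calls. Markers of other cell types moved in this comparison too. Both tested muscle markers were called lower, and together, as the 2 listed of 3, they took 1083 to 1189 RPM in d/d, against 1775 to 1884 in fl/fl MEF. The single tested neural marker was lower, with 3.91 to 4.11 RPM for its list in d/d, against 4.997 to 6.52 in fl/fl. Of the fibroblast and mesenchymal markers 1 of 6 was higher and 2 were lower, of the haematopoietic markers 1 of 3 was lower, and the liver marker was not called. Their part in these differences was not tested. miR-335-5p differed by 0.43 ± 0.32 on the log2 scale (adjusted p = 0.274) and was not called in any of the 14.

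The deposited spike-in scaling changes the 1 factor of each library, so it moves all miRNAs of a table together. A difference relative to the table's median is therefore nearly unchanged by arithmetic. Such values, here and in the comparisons below, are description and not a check. With spike-in scaling the median log2 difference of all tested miRNAs is −0.39 in d/d against fl/fl, where it is 0.02 without, and 147 miRNAs are then called higher and 283 lower in place of 203 and 183. Relative to that median, miR-483-3p was 4.39 higher with spike-in scaling and 4.41 without, on the log2 scale. miR-335-3p was 0.95 higher than the median with it and 0.97 without. Its own log2 difference with spike-in scaling was 0.56 ± 0.20 (adjusted p = 0.0279). miR-335-5p, with a log2 difference of 0.00 on the spike-in scale, was 0.39 above the median there and 0.41 above it without spike-in scaling.

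The comparison of OV with fl/fl MEF asks the same of an excess of miR-17~92. Of the 4 members tested, none was higher and 1 was lower, against 15.6% higher, 15.7% lower and 31.3% in either direction of all tested. The member called lower was miR-483-3p, by −2.30 ± 0.75 on the log2 scale (adjusted p = 0.0403), with the groups overlapping as given above. That call rests on few reads: it was lost in 8 of 14 alternative settings, with adjusted p-values from 0.00234 to 0.112. It held with the minimum mean of 100, which is no support, since miR-483-3p passed that minimum only through d/d. Without library OV2, which has no read of it, the log2 difference was −1.28 (adjusted p = 0.0574), and it was also lost without OV1 or without any single fl/fl library.

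The other arm and the Mest pair were not called in OV against fl/fl MEF. miR-483-5p differed by −0.84 ± 0.40 on the log2 scale (adjusted p = 0.124), and by −0.34 (adjusted p = 0.391) without OV4. miR-335-3p differed by 0.56 ± 0.21 (adjusted p = 0.0666) although all 3 OV libraries exceed all 3 fl/fl libraries. With spike-in scaling, which shifts the median of the table to 0.07 where it is −0.07 without, miR-335-3p differed by 0.70 and passed (adjusted p = 0.0251); relative to the median it was 0.63 higher with it and 0.64 without. The calls over the table were then 112 higher and 44 lower, in place of 103 and 104. Without OV1 miR-335-3p also passed, at 0.77 (adjusted p = 0.0122), and without OV4, the highest library, it differed by 0.28 (adjusted p = 0.104). It was called in 4 of the 14 alternatives, with adjusted p-values from 0.0122 to 0.192. miR-335-5p differed by −0.00 ± 0.32 (adjusted p = 0.996), with 1 OV library above and 2 below the fl/fl range.

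OV against d/d MEF spans the full range of the cluster, and it shares its libraries with both comparisons above. Of the 4 members tested, none was higher and 2 were lower, against 26.7% higher, 25.7% lower and 52.4% in either direction over the table. miR-483-3p had the lowest log2 difference of the 662 miRNAs, at −6.73 ± 0.75 (adjusted p = 2.24e-05), and miR-483-5p the second lowest, at −5.16 ± 0.40 (adjusted p = 1.80e-06). Both calls held in all 14 alternative settings. The minimum mean of 100 is again no support for them, since both arms passed it only through d/d. With 0 reads in 1 OV library, the size of the miR-483-3p difference ran from −7.62 to −5.57 over the alternatives.

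For miR-335 the OV and d/d libraries did not separate, and 1 library decides the values. miR-335-3p differed by −0.42 ± 0.21 (adjusted p = 0.117), and by −0.70 (adjusted p = 0.000534) without OV4. miR-335-5p differed by −0.43 ± 0.32 (adjusted p = 0.297), and by −0.87 (adjusted p = 0.00287) without OV4. With spike-in scaling the signs turn, to 0.14 for the 3p and 0.13 for the 5p arm, while the median of the table moves to 0.60 from 0.02 without it and the calls become 333 higher and 120 lower in place of 177 and 170. Relative to the median, the log2 difference of miR-335-3p was −0.45 with and without spike-in scaling.

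**Figure D2:**
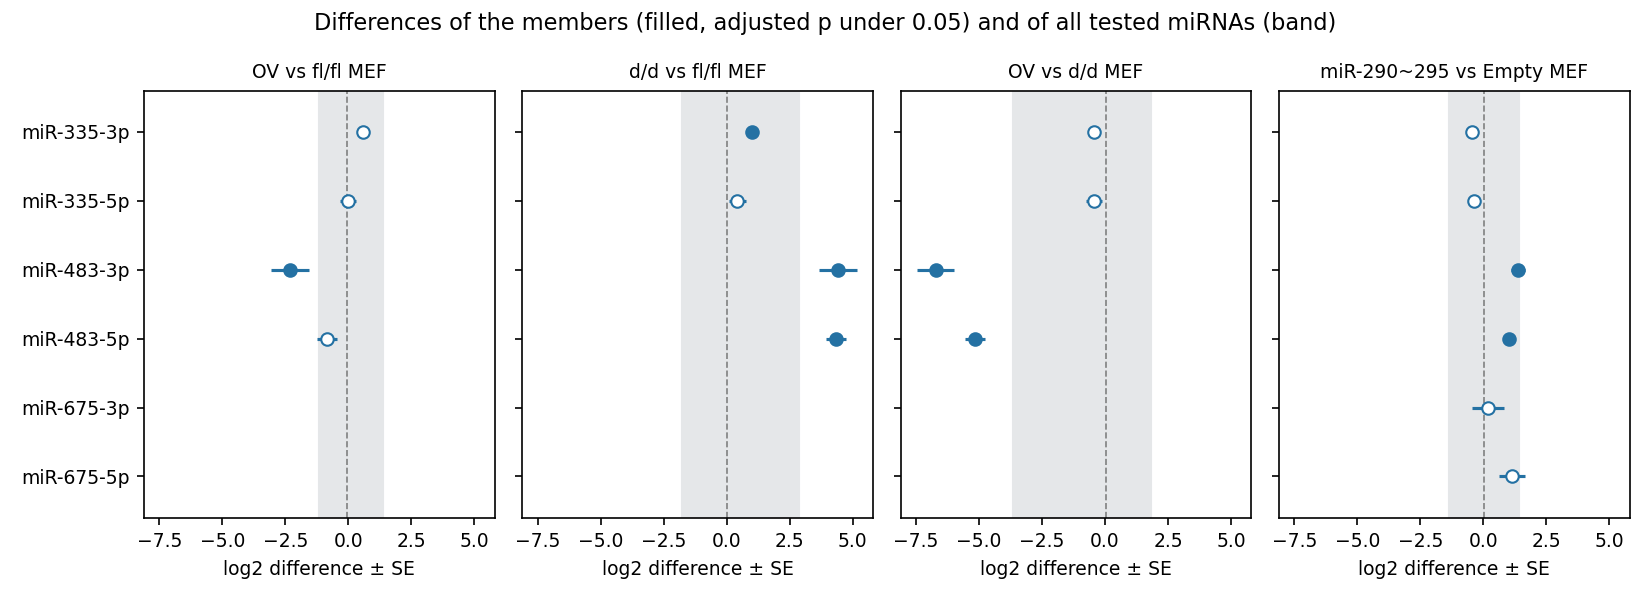
Log2 differences ± SE (horizontal axes) of the 6 miRNAs in the 4 MEF comparisons, filled where the adjusted p was under 0.05; the grey band spans the 5th to 95th percentile of all tested miRNAs and the dashed line is their median. miR-483-3p and miR-483-5p lie outside the band in d/d against fl/fl (4.43 and 4.32) and in OV against d/d (−6.73 and −5.16), and inside it in miR-290~295 against Empty (1.38 and 1.01). The miR-675 arms were tested only in the last comparison.

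In the second MEF set all cells carry the deletion of miR-17~92, and the comparison asks what overexpressed miR-290~295 does there. Low counts named for miR-17~92 remained and differed between the groups, with sums of 129 to 166 normalized counts with miR-290~295 and 648 to 972 with Empty. All 6 members passed the minimum mean of 10 in this deeper set. miR-483 was high in both groups and higher with the cluster. miR-483-3p had 1925, 1882 and 2343 normalized counts in the miR-290~295 libraries, against 1213, 527 and 754 in the Empty libraries. miR-483-5p had 2922, 2778 and 3499 with miR-290~295, against 1923, 1330 and 1356 with Empty. The groups do not overlap for either arm, and E1 is the highest of the Empty libraries for both.

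miR-335 lay lower in most miR-290~295 libraries. miR-335-3p had 13857, 11035 and 12892 normalized counts with miR-290~295, against 18839, 18675 and 13765 with Empty. Library E3 falls below the highest miR-290~295 library, so the groups overlap by that pair. miR-335-5p had 244, 321 and 322.6 normalized counts with miR-290~295, against 325, 410 and 409.4 with Empty, and these do not overlap, although the nearest values, 322.6 and 325, nearly meet.

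The H19 miRNA was measurable in this set, though at low level. miR-675-5p had 31.8, 55.7 and 59.3 normalized counts with miR-290~295, from 30, 54 and 68 reads, against 8.997, 23.0 and 42.7 with Empty, from 8, 26 and 44 reads. miR-675-3p had 6.36, 27.8 and 34.0 normalized counts with miR-290~295, against 10.1, 13.3 and 32.0 with Empty. Both arms overlap between the groups.

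**Figure D3:**
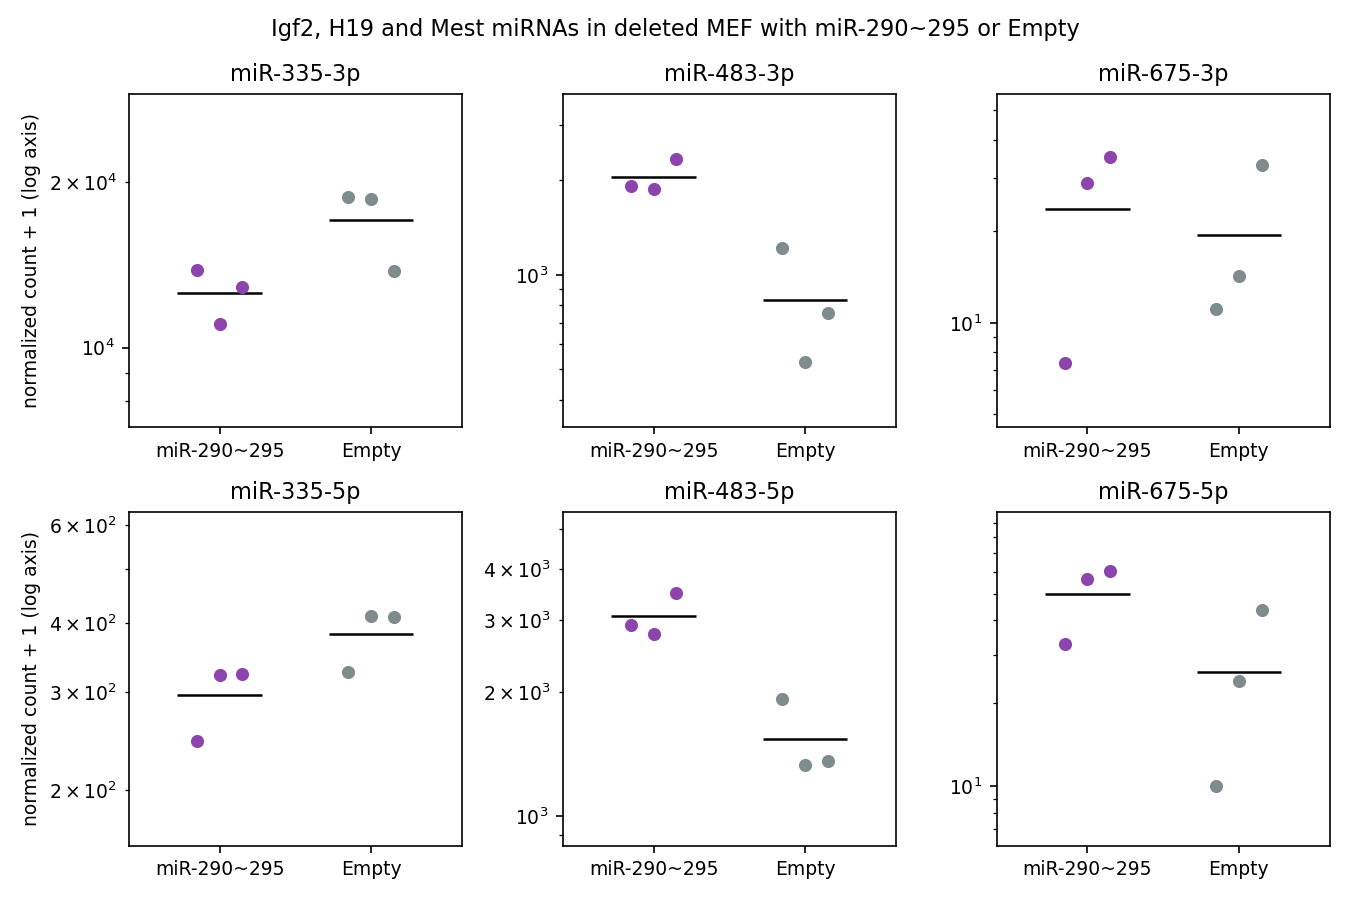
Normalized counts + 1 (log axes, which differ between panels) of the 6 miRNAs in d/d MEF with miR-290~295 or with Empty, a point per library and a line at the mean of the 3. The miR-290~295 libraries lie above all Empty libraries for miR-483-3p (1882 to 2343 against 527 to 1213) and for miR-483-5p (2778 to 3499 against 1330 to 1923), and overlap with them for both miR-675 arms.

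Of the 6 members, 2 were called higher with miR-290~295 and none lower, against 16.7% higher, 22.3% lower and 38.9% in either direction among the 840 miRNAs tested. miR-483-3p was 2.60-fold higher, a log2 difference of 1.38 ± 0.28 (adjusted p = 0.00414), in 3 of 3 libraries. miR-483-5p was 2.01-fold higher, a log2 difference of 1.01 ± 0.19 (adjusted p = 0.00274), in 3 of 3 libraries. With spike-in scaling the median of the table moves to −0.46, where it is 0.02 without, and 56 miRNAs are called higher and 331 lower in place of 140 and 187. On that scale miR-483-3p still passed, at 0.89 ± 0.28 (adjusted p = 0.01998), and miR-483-5p no longer did, at 0.53 ± 0.22 (adjusted p = 0.0681). Relative to the median, miR-483-5p was 0.98 higher with spike-in scaling and 0.99 higher without.

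The remaining 4 were not called. miR-335-3p differed by −0.43 ± 0.17 (adjusted p = 0.0679) and miR-335-5p by −0.37 ± 0.19 (adjusted p = 0.161). With spike-in scaling both passed, at −0.92 (adjusted p = 0.00348) and −0.85 (adjusted p = 0.00470), which relative to the median of the table is −0.46 and −0.40, against −0.46 and −0.39 without it. Without E3 miR-335-3p passed as well, at −0.58 (adjusted p = 0.0208), and so it did with re-centred medians, at −0.54 (adjusted p = 0.0351). It was not called in the other 12 of 15 alternatives. miR-675-5p differed by 1.14 ± 0.51 (adjusted p = 0.108), and by 1.64 (adjusted p = 0.0187) without E3, the Empty library in which it was highest. Without E1, where it was lowest, the difference was 0.57 (adjusted p = 0.259). miR-675-3p differed by 0.17 ± 0.64 (adjusted p = 0.862), with a sign that changed over the alternatives. The fibroblast and mesenchymal markers moved in this comparison too: they took 38460 to 44708 RPM with miR-290~295 and 60792 to 83426 with Empty, with 5 of the 6 called lower. Of the muscle markers 1 of 2 tested was lower, and the list took 950.0 to 1109 RPM with miR-290~295 and 1236 to 1721 with Empty. Their part in the miR-335 and miR-483 values was not tested.

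The d/d cells of the first set and the Empty cells of the second carry the same deletion of miR-17~92, but the tables were scaled separately, so they are set side by side in RPM, without a test. miR-335-3p took 295.6 to 377 RPM in d/d, 272 to 388 in Empty and 156 to 158 in fl/fl MEF. miR-483-3p took 19.6 to 30.3 in d/d, 10.1 to 24.998 in Empty and 0.645 to 1.31 in fl/fl MEF. miR-483-5p took 16.7 to 17.5 RPM in d/d, 25.5 to 39.6 in Empty and 0.514 to 1.02 in fl/fl MEF. In both, all libraries lay above every fl/fl library for these 3 miRNAs. For miR-335-3p so did the OV libraries, at 184 to 353 RPM, so its level is not particular to cells with the deletion. The miR-483 arms were at 0.698 RPM or below in OV.

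The balance of the arms of a hairpin needs no library scaling, since both come from the same library. For miR-335 the 3p arm took 96.9% to 98.6% of the reads of both arms in the first MEF set and 97.1% to 98.3% in the second. There were 39.2 to 68.9 reads of the 3p arm per read of the 5p arm in OV, 45.2 to 55.5 in d/d and 30.8 to 34.7 in fl/fl MEF. The mean log2 ratio was 5.605 ± 0.42 in OV, 5.599 ± 0.16 in d/d and 5.04 ± 0.09 in fl/fl (SD, n = 3 each). OV was 0.57 above fl/fl and d/d 0.56 above fl/fl, both without overlap, and both use the same fl/fl libraries. Each gave p = 0.1 in a two-sided exact permutation test, the smallest that 3 against 3 libraries allow, and an adjusted p = 0.3 over the 12 arm tests, so neither passed.

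miR-483 gave reads of both arms in similar number, and the more frequent arm was not the same in the 2 sets. In d/d MEF the 3p arm was ahead, with 1.17 to 1.73 reads per read of the 5p arm. In the second set the 5p arm was ahead, with 0.659 to 0.677 reads of the 3p arm per 5p read with miR-290~295 and 0.396 to 0.631 with Empty. The log2 ratio was 0.37 higher with miR-290~295 than with Empty, without overlap (two-sided exact permutation p = 0.1, adjusted p = 0.3). The OV and fl/fl libraries had 24 and 41 reads of the 5p arm over 3 libraries, too few for their ratios to be read.

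In the second set, where it could be measured, miR-675 leaned to its 5p arm in every library except E1. There the 3p arm had 9 reads and the 5p arm 8. The 3p arm had 0.200 to 0.574 reads per 5p read with miR-290~295 and 0.577 to 1.13 with Empty, a log2 difference of −0.97 without overlap (two-sided exact permutation p = 0.1, adjusted p = 0.3). These ratios rest on 6 to 39 reads of the 3p arm per library.

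**Figure D4:**
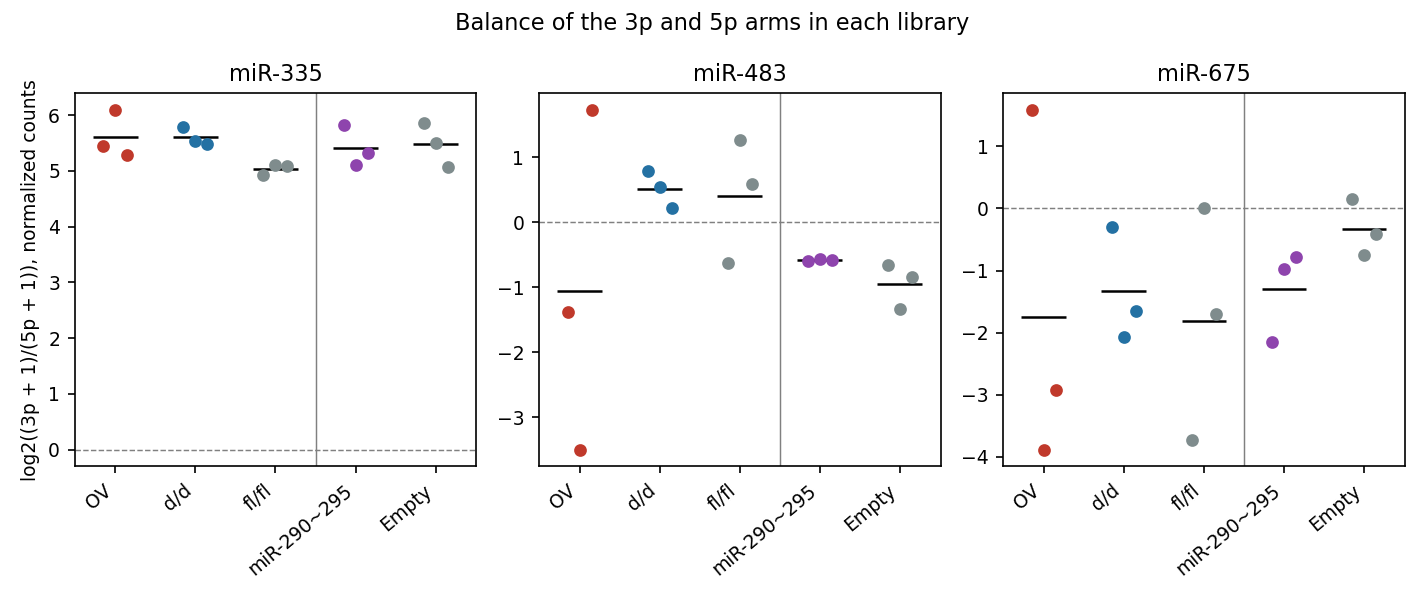
Log2 ratio of the 3p to the 5p arm (normalized counts + 1) of each hairpin in every MEF library, a point per library and a line at the group mean; the vertical line parts the first set (OV, d/d, fl/fl) from the second (miR-290~295, Empty). miR-335 stays near 5 to 6 in every group, and miR-483 lies above 0 in d/d (0.23 to 0.79) and below 0 in all 6 libraries of the second set (−1.33 to −0.56).

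In splenic B cells the deposited table, which the submitters had filtered, lists only miR-335-3p of the 6. It had 32.2 normalized counts in the OV library, from 24 reads (exact Poisson 95% interval 20.6 to 47.8). The d/d library had 7.15, from 9 reads (3.27 to 13.6), and the fl/fl library had 8.48, from 9 reads (3.88 to 16.1). The intervals cover counting error only, and the differences have no replicate check. On the scale of normalized counts OV lies above both other libraries with no overlap of intervals, and d/d and fl/fl overlap. In recovered reads the intervals of OV (15.4 to 35.7) and of d/d and fl/fl (4.12 to 17.1 each) do overlap. The separation of OV thus rests on the size factors. The log2 difference was 1.81 for OV against fl/fl, 2.02 for OV against d/d and −0.22 for d/d against fl/fl. miR-335-3p passed the minimum mean of 10 only through its OV library. The shares that follow are therefore no support for its OV differences. Of the 476 miRNAs compared, 12.6% were past 2-fold in OV against fl/fl, 6.3% each higher and lower. In d/d against fl/fl 34.2% were, 16.2% higher and 18.1% lower, and in OV against d/d 37.6% were, 19.3% higher and 18.3% lower. In RPM, miR-335-3p was at 0.848 to 2.35 in B cells and at 156 to 377 in the first MEF set.

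The miRNAs whose levels ran most like those of the members were ranked by Pearson's r of log2 values over the 9 libraries of the first MEF set, which form 3 groups that share their cells. For miR-483-5p they were miR-543-3p (r = 0.997), miR-134-5p (0.996) and miR-341-3p (0.996), which belong to another imprinted domain, Dlk1-Dio3. For miR-483-3p they were miR-149-5p (0.97), miR-181d-5p (0.96) and let-7c-1-3p (0.95). For miR-335-3p they were miR-497a-5p (0.98), miR-195a-3p (0.95) and miR-351-3p (0.93), and for miR-335-5p the highest r was 0.70, again with miR-497a-5p. The arms of 1 hairpin had r = 0.86 for miR-483 and 0.71 for miR-335.

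Over the 6 libraries of the second set the ranking held other names. miR-483-3p ran most like miR-23a-5p and miR-483-5p most like miR-1946a, each with r of 0.99 or more (0.995 and 0.994). miR-335-3p ran most like miR-3079-5p (0.96), miR-335-5p like miR-134-3p (0.97), miR-675-3p like miR-30d-5p (0.92) and miR-675-5p like miR-96-3p (0.96). The arms had r = 0.98 for miR-483, 0.68 for miR-675 and 0.31 for miR-335.

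Other imprinted miRNAs were counted by locus. In OV against fl/fl MEF, 24 of the 43 tested miRNAs of Dlk1-Dio3 were lower (median log2 difference −0.95) and 32 of 40 of Sfmbt2 were higher (median 1.30), against 15.7% lower and 15.6% higher over all tested miRNAs, whose median was −0.07. In d/d against fl/fl MEF, 42 of the 43 tested miRNAs of Dlk1-Dio3, a maternally expressed miRNA cluster, were higher, with a median log2 difference of 2.53, and 36 of 40 of Sfmbt2, a paternally expressed gene with a large intronic cluster, were higher, with a median of 1.45, against 30.7% of all tested miRNAs. With miR-290~295 against Empty, 39 of 48 Dlk1-Dio3 miRNAs were lower (median −1.10) and 31 of 48 Sfmbt2 miRNAs were lower (median −0.88), against 22.3% of all tested miRNAs, in the comparison where both miR-483 arms were higher. In OV against d/d MEF, all 43 tested miRNAs of Dlk1-Dio3 were lower (median −3.50), against 25.7% of all tested miRNAs. Of the 40 of Sfmbt2, 2 were higher and 1 was lower (median −0.24), against 26.7% higher and 25.7% lower over all tested. The median of all tested miRNAs was 0.02 in each comparison other than OV against fl/fl.

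At Gnas, an imprinted locus with parent-specific transcripts, miR-296 and miR-298 showed little difference. None of the 4 arms was called in the first MEF set, where 31.3% of all tested miRNAs were called in OV against fl/fl, 58.3% in d/d against fl/fl and 52.4% in OV against d/d. miR-298-5p, the most abundant of them, averaged 25588 ± 386 normalized counts in OV, 26177 ± 919 in d/d and 24988 ± 999.3 in fl/fl MEF (SD, n = 3 each). miR-296-3p averaged 13645 ± 2345 in OV, 14617 ± 1771 in d/d and 11356 ± 421 in fl/fl MEF, with a log2 difference of 0.36 ± 0.14 for d/d against fl/fl (adjusted p = 0.0545). miR-296-5p averaged 689 ± 67.0 in OV, 682 ± 117 in d/d and 732 ± 46.8 in fl/fl MEF, and miR-298-3p averaged 13.1 ± 13.8, 24.5 ± 8.47 and 23.5 ± 4.08 in the same order. With miR-290~295 against Empty, 1 of 4 was lower: miR-296-5p, at 1776 ± 299 against 2591 ± 347 normalized counts, a log2 difference of −0.55 ± 0.17 (adjusted p = 0.0346).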

How the data were processed

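Mature miRNAs were measured by small RNA sequencing in 18 libraries. Per the labels' protocols, total RNA received spike-ins, small RNAs were purified on a gel, and the NEBNext small RNA kit was used. The deposited values used are signals, that is, read counts scaled by a size factor for each library. The submitters' processing notes list DESeq2 with no version; which aligner, counting tool, annotation and build the authors used was not given in the sources used here. All values were whole multiples of 1 step per library (within 0.0001), so reads were recovered. The 33 deposited columns of rlog values were not used. Tables without spike-in scaling were the main ones.

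For each MEF set, limma 3.58.1 (R 4.3.3) with trend estimation and a group term was fitted to log2(normalized count + 1) of miRNAs with a mean of at least 10 (662 of 1204 and 840 of 1265), sharing 1 spread within a set. Fold changes are on that scale, where those of low miRNAs depend on the pseudocount. The fits were tested on simulated data. B cells, with 1 library per group and 476 of 756 miRNAs kept, were not tested. Arm ratios were compared by two-sided exact permutation. Alternatives were pseudocounts of 0.5 and 5, no minimum, a minimum mean of 100, spike-in scaling, re-centred medians, edgeR 4.0.16 and DESeq2 1.42.0 on recovered reads, leaving out each library, and a replicate block in the second set.

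The members and lists were chosen with earlier results of these data known. Named by rule were the 6 members, the 3 miRNAs most correlated with each tested member (the first of 3 is given in the second set and for miR-335-5p), any miRNA sharing a member's seed (none), counts for the Dlk1-Dio3, Sfmbt2 and Gnas lists, and both arms of miR-296 and miR-298.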

Additional observations from a re-analysis of the deposited data

Results flagged for a closer look

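The difference of miR-335-3p between d/d and fl/fl cells had opposite signs in the 2 cell types on the scale of normalized counts. In MEF all 3 d/d libraries lay above all 3 fl/fl libraries, with a log2 difference of 0.99 ± 0.21, and in B cells it was −0.22, with 7.15 normalized counts in the d/d library and 8.48 in the fl/fl library. The difference between cell types was not tested, because B cells have 1 library per group. Both B-cell values come from 9 reads, their intervals overlap, and the sign is set by the size factors: in RPM the d/d library had 0.851 and the fl/fl library 0.848. No direction can be read from these B-cell values.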

How the results depend on the processing

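Of the MEF results, the calls of both miR-483 arms in d/d against fl/fl and in OV against d/d, of miR-483-3p with miR-290~295, and of miR-335-3p in d/d against fl/fl held under every alternative run. For the miR-483 calls of the first set the minimum mean of 100 is no support, because both arms passed it only through d/d. In OV against fl/fl, 1 member was called in the main fit, miR-483-3p, which was lower. The number was 0 with a pseudocount of 0.5, 2 with re-centred medians, 2 with DESeq2, and 0 to 1 without single libraries. With spike-in scaling, with edgeR and without OV1 the 1 called was instead miR-335-3p, which was higher (0.70, 0.66 and 0.77 on the log2 scale). Without single libraries the number called was 2 to 4 in OV against d/d and 2 to 4 with miR-290~295, where it is 2 with all. With miR-290~295 it was 3 with spike-in scaling and 3 with re-centred medians, miR-335-3p among them in both. miR-335-5p in OV against fl/fl, −0.00 on the log2 scale, became 0.0036 with a pseudocount of 5, 0.13 with spike-in scaling, 0.18 with edgeR and 0.12 with DESeq2, and −0.44 to 0.31 without single libraries. With spike-in scaling OV against d/d gave 0.14 for miR-335-3p and 0.13 for miR-335-5p, and miR-675-3p with miR-290~295 gave −0.29 (−0.25 to 0.87 without single libraries). The cause of these changes was not tested. Of the arm ratios, none of which passed, a pseudocount of 5 turned miR-675 in OV against fl/fl to −0.10 and miR-335 in OV against d/d to −0.015. Leaving out single libraries gave −1.59 to 1.14 (OV against fl/fl), −0.49 to 1.38 (d/d against fl/fl) and −2.07 to 0.66 (OV against d/d) for miR-675. It gave −0.41 to 0.54 for miR-483 in d/d against fl/fl, and for miR-335 −0.23 to 0.17 in OV against d/d and −0.27 to 0.13 with miR-290~295.

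In the second set, deviations from the group mean correlated at 0.28, 0.01 and −0.26 between replicates of the same number. Between replicates of different number the correlations ran from −0.38 to 0.39. With 3 libraries per group these values cannot decide whether the numbers mark paired libraries. With a replicate block, 35.5% of the 840 miRNAs were called in place of 38.9%, and 3 members in place of 2, the third being miR-675-5p (adjusted p = 0.0335). No paired analysis was possible in the first set because its OV and fl/fl columns carry numbers that do not match the labels. Spike-in scaling was not available for B cells. Depth limits miR-675 in the first set, miR-483 in OV and fl/fl MEF and miR-335-3p in B cells, which rest on 24 reads or fewer per library.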
